A study of Mus musculus with 16 samples.

Results

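The receptors described here are the 56 odorant receptor genes of mouse chromosome 7 whose symbols run from Olfr467 to Olfr542. They were chosen as every probe set whose annotated symbol is Olfr followed by a number in that range with no pseudogene suffix, leaving out Olfr481 and Olfr536. The 56 probe sets are part of 1080 odorant receptor probe sets and 22206 tested probe sets of the Clariom S mouse array. Cells were sorted from dissociated olfactory mucosa of S100a5-tauGFP mice, which carry a green fluorescent reporter under the activity-dependent gene S100a5, so that GFP+ cells are enriched for recently active olfactory neurons. The design looks for receptors whose transcripts gain enrichment in GFP+ cells when the animals smell an odor.

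The 4 groups were GFP+ cells of odor-exposed mice, GFP- cells of odor-exposed mice, GFP+ cells of vehicle-exposed mice and GFP- cells of vehicle-exposed mice, with 4 arrays each. All 24 mice carried the reporter, were of both sexes and 7 to 12 weeks old, and lived for 40 h in clean air chambers flushed at 3.1 L/min. From 26 h on they received 10 s pulses every 20 min of the odor or of filtered air. Cells of 3 mice were pooled, which gave 4 pools per stimulus and 1 GFP+ and 1 GFP- array from each pool, so a value is an average over 3 animals. The odor is called 1-pentanethiol, a strong-smelling thiol, in the title and sample labels, whereas the design text names bourgeonal. The sample labels were followed.

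Odorant receptors are G protein-coupled receptors of the cilia of olfactory sensory neurons, and a mature neuron expresses mainly a single receptor gene from a single allele. Odor binding raises cyclic AMP through the olfactory G protein and opens a cyclic nucleotide-gated channel, and sustained activity raises S100a5. Receptor genes lie in tandem clusters and fall into class I, the fish-like receptors, and the larger class II. In bulk RNA of sorted cells, more neurons that chose a receptor and more receptor RNA per neuron cannot be told apart.

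The genes fell into 3 loci of chromosome 7, of which the first holds Olfr520 and Olfr521, the second holds 41 genes from Olfr467 to Olfr519 and the third holds 13 genes from Olfr522 to Olfr541. By the receptor family names of the annotation, 30 of the 56 belonged to MOR204, 6 to MOR268, 4 each to MOR251 and MOR253, and 2 each to MOR101, MOR103, MOR252 and MOR267. MOR104, MOR195, MOR34 and MOR40 had 1 gene each. Families up to MOR42 are class I, so Olfr503 of MOR34 and Olfr504 of MOR40 are class I genes by name, and the other 54 are class II. Olfr543, the next number, belonged to the class I family MOR42, and Olfr466, the number before, lies on chromosome 13.

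MOR204 holds genes that are much alike over the first 50 coding bases, which are shown here, but unlike in enrichment. RefSeq sequence of GRCm38.p6 was matched by Entrez gene identifier for 52 of the 56 genes. In 50 of these the annotated gene start was the start codon, so the first 50 bases are coding sequence. Lower case marks the base most common among MOR204 genes at the same position from the start codon. Capitals mark a base that differs from it. The genes were not aligned, so a stretch that is alike but shifted by a few bases is marked as differing. The first group below shares most of its bases, and the Olfr494, Olfr490, Olfr482 and Olfr493 transcripts were enriched in GFP+ cells of both stimuli, whereas Olfr495, Olfr487, Olfr488 and Olfr484 were depleted in at least 1 sort. Their windows are chr7:108367492-108367541 on the plus strand, chr7:108287075-108287124, chr7:108095519-108095568 and chr7:108346930-108346979 on the minus strand, and then chr7:108395122-108395171 on the plus strand and chr7:108212478-108212527, chr7:108256087-108256136 and chr7:108125212-108125261 on the minus strand.
Olfr494: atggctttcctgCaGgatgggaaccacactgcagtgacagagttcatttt
Olfr490: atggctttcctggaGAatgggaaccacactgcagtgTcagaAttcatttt
Olfr482: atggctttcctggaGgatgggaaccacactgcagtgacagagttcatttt
Olfr493: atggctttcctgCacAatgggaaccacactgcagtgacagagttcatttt
Olfr495: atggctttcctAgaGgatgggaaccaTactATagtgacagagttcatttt
Olfr487: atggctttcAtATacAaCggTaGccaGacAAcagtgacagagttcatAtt
Olfr488: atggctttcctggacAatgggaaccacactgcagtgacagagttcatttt
Olfr484: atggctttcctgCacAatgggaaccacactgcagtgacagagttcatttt
The Olfr493 and Olfr484 stretches are the same over all 50 bases, although the values of the 2 genes lie on opposite sides of 0. Olfr491 (chr7:108316896-108316945, plus strand) and Olfr472 (chr7:107902719-107902768, plus strand) are MOR204 genes with fewer of the commonest bases at the same positions. Both were among the most enriched.
Olfr491: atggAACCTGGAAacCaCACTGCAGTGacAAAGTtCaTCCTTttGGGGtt
Olfr472: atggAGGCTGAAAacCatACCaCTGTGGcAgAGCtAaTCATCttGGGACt

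The files hold log2 signals, and a difference of 1 is a doubling. The median over the 5222 negative control entries, taken as the level of nonspecific signal, was 6.24 to 6.48 on odor GFP+ arrays, 6.04 to 6.10 on odor GFP- arrays, 6.22 to 7.28 on vehicle GFP+ arrays and 5.99 to 6.12 on vehicle GFP- arrays. The vehicle GFP+ array of replicate 2 had the value of 7.28 and stood apart. Of the 56 receptors, 45 lay above this level on all 4 arrays of at least 1 group, and 5 lay above it on no array, namely Olfr485, Olfr503, Olfr504, Olfr512 and Olfr514. As a check of the sort, S100a5 was higher in GFP+ cells by 0.99 ± 0.12 in odor pools and 0.87 ± 0.12 in vehicle pools (log2 ± SE, limma adjusted p = 7.79e-06 and 3.51e-05). Omp, the marker of mature olfactory neurons, had 18.35 in GFP+ and 18.32 in GFP- cells of odor pools, and 18.32 and 18.27 in those of vehicle pools, differences of 0.03 and 0.05 that did not pass.

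As a set, the receptors were shifted towards GFP+ cells in the pools of both stimuli. The median signal of the 56 was 9.64 ± 0.31 in odor GFP+ cells against 8.76 ± 0.11 in odor GFP- cells, and 9.88 ± 0.25 in vehicle GFP+ cells against 8.66 ± 0.14 in vehicle GFP- cells (SD, n = 4 each). The median over all odorant receptors was 9.69 in odor GFP+ and 9.62 in odor GFP- cells, and 9.78 in vehicle GFP+ and 9.56 in vehicle GFP- cells.

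In odor pools, 33 of the 56 receptors were higher in GFP+ cells, 3 were lower and 20 did not pass, by limma with Benjamini-Hochberg adjustment over all tested probe sets at 0.05. Over all tested probe sets 11.3% were higher and 11.9% lower, against 58.9% and 5.36% of the 56. Of the 1024 other odorant receptors 35.4% were higher and 28.4% lower. The median difference was 1.04 over the 56, 0.23 over the other odorant receptors and 0.13 over all tested probe sets. In 37 of the 56 (66.1%) the GFP+ and GFP- arrays did not overlap, against 60.4% of the other odorant receptors and 26.8% of all tested probe sets. The difference had the same sign in all 4 pools for each of the 33 higher and 3 lower receptors.

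In vehicle pools, 34 of the 56 were higher, 4 lower and 18 did not pass. The share of all tested probe sets was 9.34% higher and 11.8% lower, against 60.7% and 7.14% of the 56 and 35.6% and 25.4% of the other odorant receptors. The median difference was 0.98 over the 56, 0.24 over the other odorant receptors and 0.11 over all tested probe sets. With the medians of the negative control entries set equal on every array, 22 were higher in vehicle pools and the median was 0.49. For these shares no test of the 56 against other receptors was run.

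The pools of the 2 stimuli share no mice or arrays, and the receptors had much the same differences in both. Higher in both sorts were 32 receptors, lower in both were Olfr487 and Olfr495, and no receptor was called higher in 1 sort and lower in the other. Over the 56 genes, which share arrays within a sort and are no independent replicates, the fitted differences correlated with r = 0.951 (Spearman's rho = 0.959). Olfr476 passed as higher in odor pools alone and Olfr503 and Olfr530 in vehicle pools alone, Olfr488 as lower in odor pools alone, and Olfr484 and Olfr498 as lower in vehicle pools alone. Olfr503 passed with 0.62 ± 0.19 (limma adjusted p = 0.0268) although none of its arrays lay above the negative control median, so it has no fold, and Olfr530 lay at the edge with 0.63 ± 0.22 (limma adjusted p = 0.0478, and 0.0645 with the pool of mice as a block). These calls were lost when any 1 of 4 of the 8 vehicle arrays was left out for Olfr503 and any 1 of 6 for Olfr530. For none of these 6 did the difference between the sorts itself pass the threshold.

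**Figure D1:**
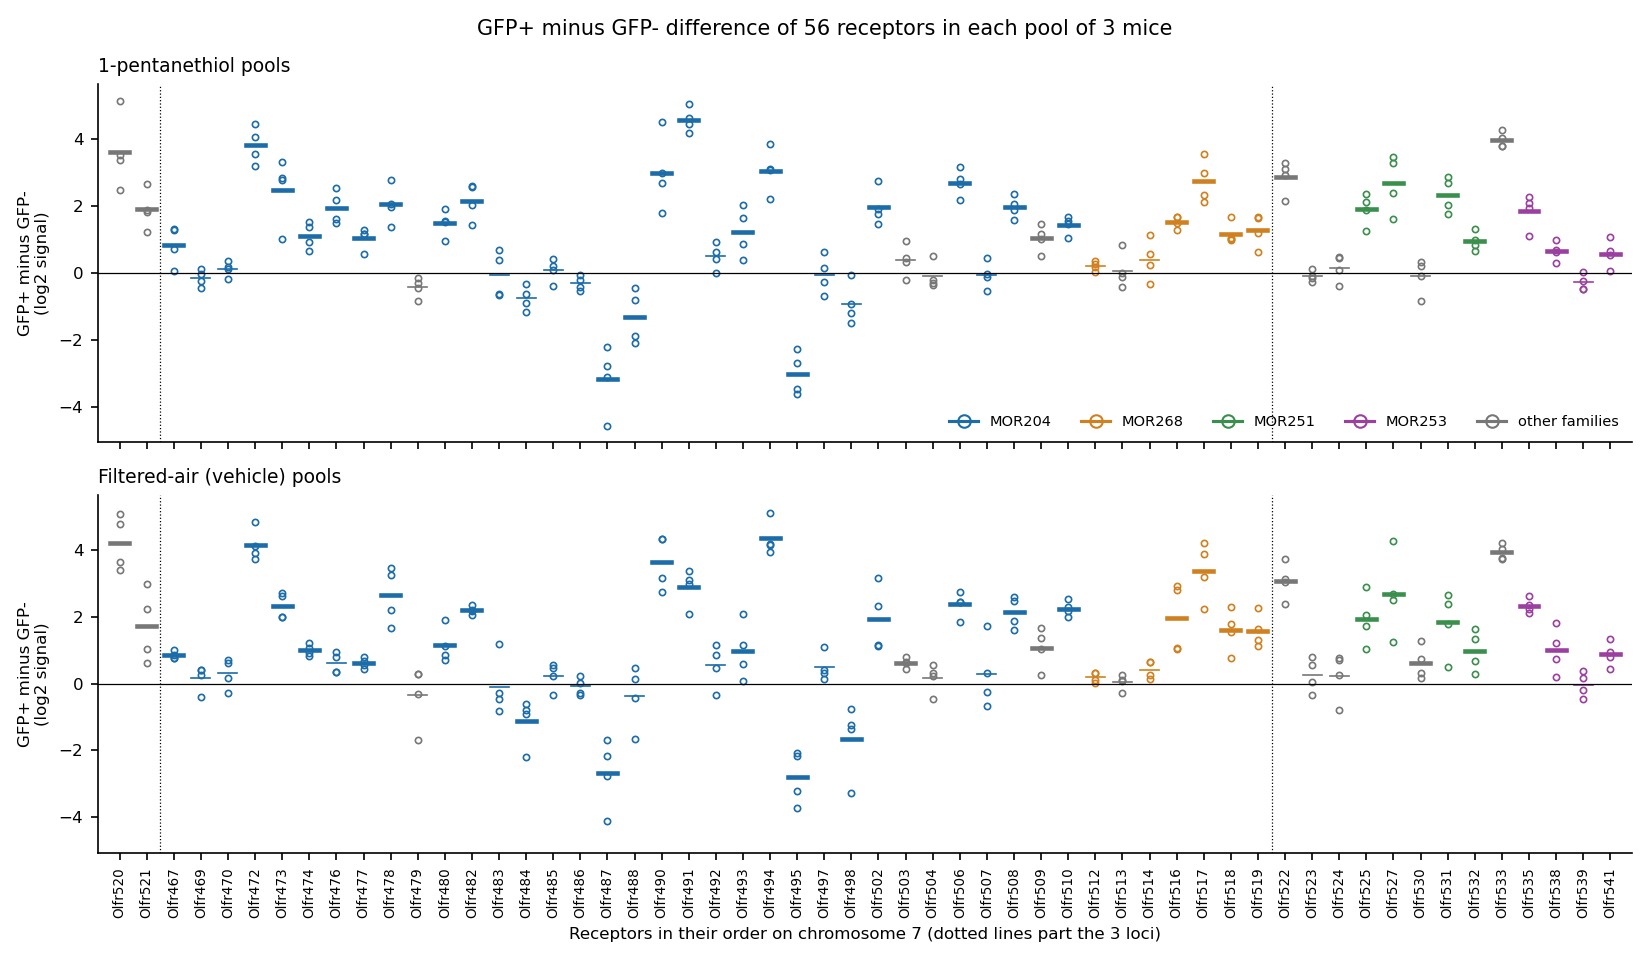
GFP+ minus GFP- difference in log2 signal of each of the 56 receptors (x axis, in chromosomal order) in the 4 odor pools (upper panel) and the 4 vehicle pools (lower panel). Circles are pools, bars are means, a thick bar marks a receptor past the threshold, and colours mark families. The points of Olfr487 and Olfr495 lie below 0 in all 8 pools, and those of Olfr494, next to Olfr495, lie above 0 in all 8.

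**Figure D2:**
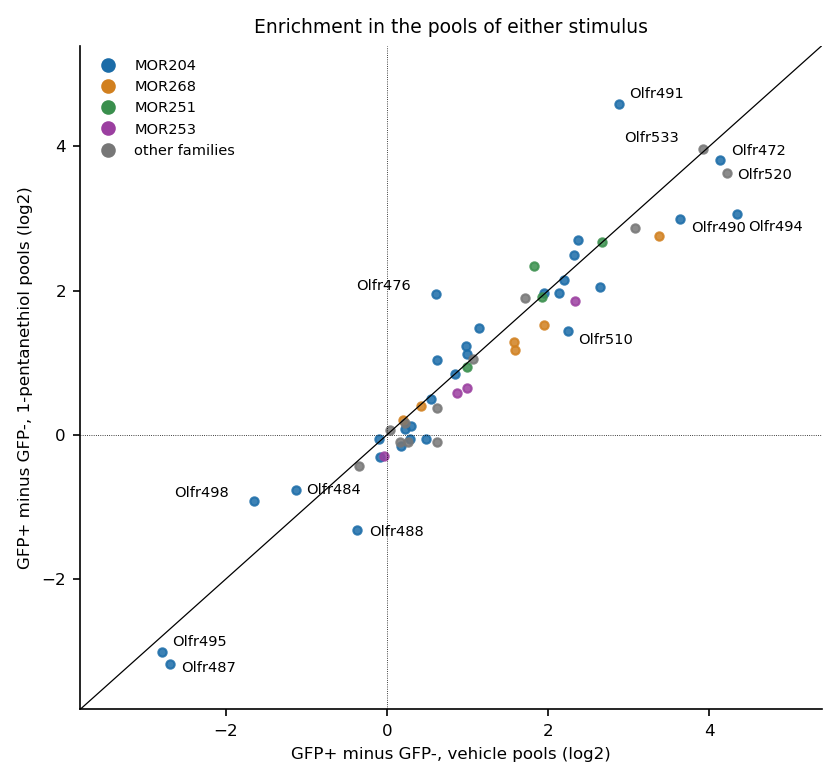
Fitted GFP+ minus GFP- difference (log2) of each receptor in odor pools (y axis) against that in vehicle pools (x axis), with families in colour and the line of equal values. The receptors lie along the line (r = 0.951), and Olfr491, Olfr476 and Olfr494 lie farther from it than most.

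The most enriched receptors came from several families. Olfr533 of MOR252 had 14.88, 14.73, 15.21 and 15.02 in odor GFP+ cells against 11.09, 10.70, 10.93 and 11.24 in odor GFP- cells. In vehicle pools it had 15.40, 14.80, 15.06 and 14.63 in GFP+ cells against 11.39, 11.02, 10.86 and 10.91 in GFP- cells. No GFP+ array overlapped a GFP- array, and the difference was 3.97 ± 0.18 in odor pools (15.7-fold, limma adjusted p = 9.18e-11) and 3.93 ± 0.18 in vehicle pools (15.2-fold, limma adjusted p = 9.43e-11). Olfr533 carries a P, which usually marks a pseudogene, in its family name but is listed as protein-coding in the annotation. Of 8 such receptors, 3 were higher and 1 lower in odor pools and 4 were higher and 1 lower in vehicle pools.

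Olfr472 of MOR204 had 13.11, 12.80, 13.36 and 12.97 in odor GFP+ cells against 9.92, 8.36, 9.29 and 9.40 in odor GFP- cells. In vehicle GFP+ cells it had 13.38, 12.67, 13.21 and 12.81, against 9.48, 8.55, 8.39 and 9.09 in vehicle GFP- cells. The groups lay apart in both, by 3.82 ± 0.29 (14.1-fold, limma adjusted p = 2.84e-08) in odor pools and 4.14 ± 0.29 (17.6-fold, limma adjusted p = 1.09e-08) in vehicle pools. Its neighbour Olfr473, with 98 percent of the first 50 coding bases in common, was higher by 2.49 ± 0.40 and 2.33 ± 0.40.

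Olfr520 of MOR101, at the locus apart from the rest, had 9.17, 9.32, 8.84 and 9.91 in odor GFP+ cells against 5.79, 5.80, 6.35 and 4.75 in odor GFP- cells. In vehicle pools it had 9.62, 8.70, 10.09 and 10.61 in GFP+ cells against 5.97, 5.32, 5.02 and 5.83 in GFP- cells. Its GFP- signal was not above the negative control median on 3 of 4 odor arrays and on all 4 vehicle arrays, so in vehicle pools it was at least 12.9-fold higher in GFP+ cells (limma adjusted p = 2.07e-07). In odor pools the difference was 3.63 ± 0.38 (limma adjusted p = 1.15e-06), a size that rests on 3 GFP- arrays with a signal not above the negative control median. Such a bound sets the mean of the bright group against the negative control medians of the dim group's arrays. Olfr521 of the same family and locus was higher by 1.90 ± 0.34 and 1.72 ± 0.34.

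Among the other families with 3 or more receptors, MOR251 had 4 of 4 receptors past the threshold as higher in both sorts. Olfr527 and Olfr531 were higher by 2.68 ± 0.53 and 2.34 ± 0.36 in odor pools and by 2.67 ± 0.53 and 1.83 ± 0.36 in vehicle pools, Olfr525 by 1.91 ± 0.37 and 1.93 ± 0.37, and Olfr532 by 0.94 ± 0.31 and 0.99 ± 0.31. The call of Olfr532 was lost in 7 of 17 alternatives in odor pools (limma adjusted p up to 0.358) and in 8 of 17 in vehicle pools (up to 0.33), among them 5 single arrays left out in each sort. In MOR268, 4 of 6 were higher in both sorts, led by Olfr517 with 2.75 ± 0.34 and 3.37 ± 0.34. Olfr516, Olfr518 and Olfr519 followed with 1.53 ± 0.38, 1.18 ± 0.37 and 1.28 ± 0.26 in odor pools and 1.96 ± 0.38, 1.60 ± 0.37 and 1.58 ± 0.26 in vehicle pools. The odor-pool call of Olfr518 was lost when any 1 of 5 arrays was left out (limma adjusted p up to 0.277 over the alternatives), and the remaining pair, Olfr512 and Olfr514, was not above the negative control median on any array. In MOR253, Olfr535 (1.86 ± 0.27 and 2.33 ± 0.27), Olfr538 and Olfr541 (0.58 ± 0.19 and 0.87 ± 0.19) were higher and Olfr539 did not pass. Olfr538 lay at the edge in odor pools, with 0.65 ± 0.22 (limma adjusted p = 0.0439, and 0.0614 with the pool of mice as a block), and its call was lost when any 1 of the 8 odor arrays was left out. The odor-pool call of Olfr541 was lost in 7 of 17 alternatives, 5 of them single arrays left out (limma adjusted p up to 0.695). In MOR267, Olfr509 was higher by 1.05 ± 0.34 and 1.07 ± 0.34 (limma adjusted p = 0.0362 and 0.0337), calls that were lost in 8 of 17 alternatives in each sort, with 7 single arrays left out in odor pools and 5 in vehicle pools. In MOR103, Olfr522 was higher by 2.88 ± 0.26 and 3.08 ± 0.26, and Olfr524 differed by 0.16 ± 0.41 and 0.23 ± 0.41. None of the 26 receptors outside MOR204 was lower in either sort, where 16 were higher in odor pools and 18 in vehicle pools.

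Of the other enriched MOR204 receptors, Olfr490 had 9.48, 10.41, 10.17 and 11.62 in odor GFP+ cells against 7.69, 7.73, 7.19 and 7.10 in odor GFP- cells, and 9.32, 10.06, 10.85 and 11.76 in vehicle GFP+ cells against 6.57, 6.89, 6.53 and 7.44 in vehicle GFP- cells. The groups did not overlap, the GFP+ arrays varied more than the GFP- arrays, and the differences were 2.99 ± 0.45 and 3.64 ± 0.45 (limma adjusted p = 7.99e-05 and 9.1e-06). Olfr506 had 11.90, 11.96, 11.98 and 11.98 in odor GFP+ cells against 9.23, 8.80, 9.80 and 9.18 in odor GFP- cells, a difference of 2.70 ± 0.26 (limma adjusted p = 5.3e-07), and 2.37 ± 0.26 in vehicle pools. Olfr491 had the largest difference of the 56 in odor pools, 4.59 ± 0.27 (24.0-fold, limma adjusted p = 1.51e-09), and 2.88 ± 0.27 in vehicle pools (7.36-fold, limma adjusted p = 3.15e-07).

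Olfr478, Olfr502, Olfr508 and Olfr510 were higher by 1.44 to 2.05 in odor pools and 1.95 to 2.65 in vehicle pools. Olfr467 and Olfr477 were higher by less, with 0.84 ± 0.22 and 1.04 ± 0.15 in odor pools and 0.85 ± 0.22 and 0.62 ± 0.15 in vehicle pools. Olfr480 and Olfr474 had GFP- signals that were not above the negative control median on any array. Olfr480 passed as higher in odor and vehicle pools (limma adjusted p = 0.000235 and 0.00263). Its GFP+ signal was also not above that median on 1 odor array and 2 vehicle arrays. Olfr474 passed as higher too (limma adjusted p = 0.0127 and 0.0249), and its vehicle-pool call was lost without any 1 of 3 arrays. The GFP+ signal of Olfr474 was not above the median on 2 odor arrays and 1 vehicle array. No fold is given for either receptor.

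The 16 receptors that passed in neither sort were of different kinds. Olfr485, Olfr504, Olfr512 and Olfr514 lay at or below the negative control median on every array, and Olfr486, Olfr507 and Olfr513 on some arrays of every group, so these 7 were hardly measurable. The other 9, Olfr469, Olfr470, Olfr479, Olfr483, Olfr492, Olfr497, Olfr523, Olfr524 and Olfr539, were above it on nearly every array. Their differences ran from -0.43 for Olfr479 to 0.50 for Olfr492 in odor pools, and from -0.35 for Olfr479 to 0.54 for Olfr492 in vehicle pools.

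MOR204 held both extremes. Of its 30 receptors, 17 were higher and 3 lower in odor pools, and 16 were higher and 4 lower in vehicle pools. All receptors of the set that were lower in a sort belonged to it. Olfr487 had 6.85, 6.05, 6.89 and 6.66 in odor GFP+ cells against 9.95, 10.63, 9.67 and 8.89 in odor GFP- cells. In vehicle pools it had 6.24, 7.54, 7.89 and 7.75 in GFP+ cells against 10.35, 10.31, 10.05 and 9.44 in GFP- cells. Every GFP+ array was below every GFP- array, and the differences were -3.17 ± 0.37 (limma adjusted p = 4.23e-06) and -2.69 ± 0.37 (limma adjusted p = 2.83e-05). The size in odor pools rests in part on 1 GFP+ array with a signal not above the negative control median. On vehicle GFP+ replicate 1 the signal of 6.24 lay next to that array's negative control median of 6.22.

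Olfr495 had 6.02, 5.04, 5.61 and 5.26 in odor GFP+ cells against 8.73, 8.65, 7.88 and 8.72 in odor GFP- cells. In vehicle pools it had 4.72, 5.79, 6.07 and 5.48 in GFP+ cells against 8.45, 7.95, 8.13 and 8.69 in GFP- cells. The GFP+ signal was not above the negative control median on any array, which makes the receptor at least 4.40-fold lower in odor GFP+ cells (limma adjusted p = 3.36e-07) and at least 3.37-fold lower in vehicle GFP+ cells (limma adjusted p = 8.48e-07).

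Its chromosomal neighbour Olfr494 went the other way. Olfr494 had 9.45, 9.32, 9.14 and 10.35 in odor GFP+ cells against 6.35, 6.23, 6.94 and 6.49 in odor GFP- cells, and 9.72, 9.70, 10.03 and 10.52 in vehicle GFP+ cells against 5.54, 5.75, 5.87 and 5.42 in vehicle GFP- cells. The difference was 3.06 ± 0.24 in odor pools (limma adjusted p = 5.08e-08). In vehicle pools the GFP- signal was below the negative control median on all 4 arrays, and Olfr494 was at least 15.2-fold higher in GFP+ cells (limma adjusted p = 9.38e-10). Over the first 50 coding bases Olfr494 has 96 percent and Olfr495 has 90 percent of the commonest MOR204 bases.

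The depletion of Olfr488, Olfr484 and Olfr498 was smaller. Olfr488 had 12.18, 13.65, 12.99 and 12.08 in odor GFP+ cells against 14.28, 14.10, 13.81 and 13.95 in odor GFP- cells, a difference of -1.31 ± 0.36 (limma adjusted p = 0.0138), and in vehicle pools the difference was -0.37 ± 0.36 (limma adjusted p = 0.504). Olfr484 had 8.57, 6.84, 8.15 and 8.30 in vehicle GFP+ cells against 9.35, 9.03, 8.77 and 9.21 in vehicle GFP- cells. The groups did not overlap, and the difference was -1.13 ± 0.29 (limma adjusted p = 0.00886). The GFP+ signal of 6.84, on replicate 2, was not above that array's negative control median of 7.28. Without that array the difference was -0.75. In odor pools Olfr484 differed by -0.76 ± 0.29 (limma adjusted p = 0.0671, and 0.0399 with the pool of mice as a block). Olfr498 had 4.41, 5.08, 4.67 and 4.64 in vehicle GFP+ cells against 7.69, 5.83, 5.91 and 5.98 in vehicle GFP- cells. That is a difference of -1.65 ± 0.39 (limma adjusted p = 0.0051), with 3 of the 4 GFP- arrays also not above the negative control median, so no fold is given, and it was -1.20 without vehicle GFP- replicate 1.

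**Figure D3:**
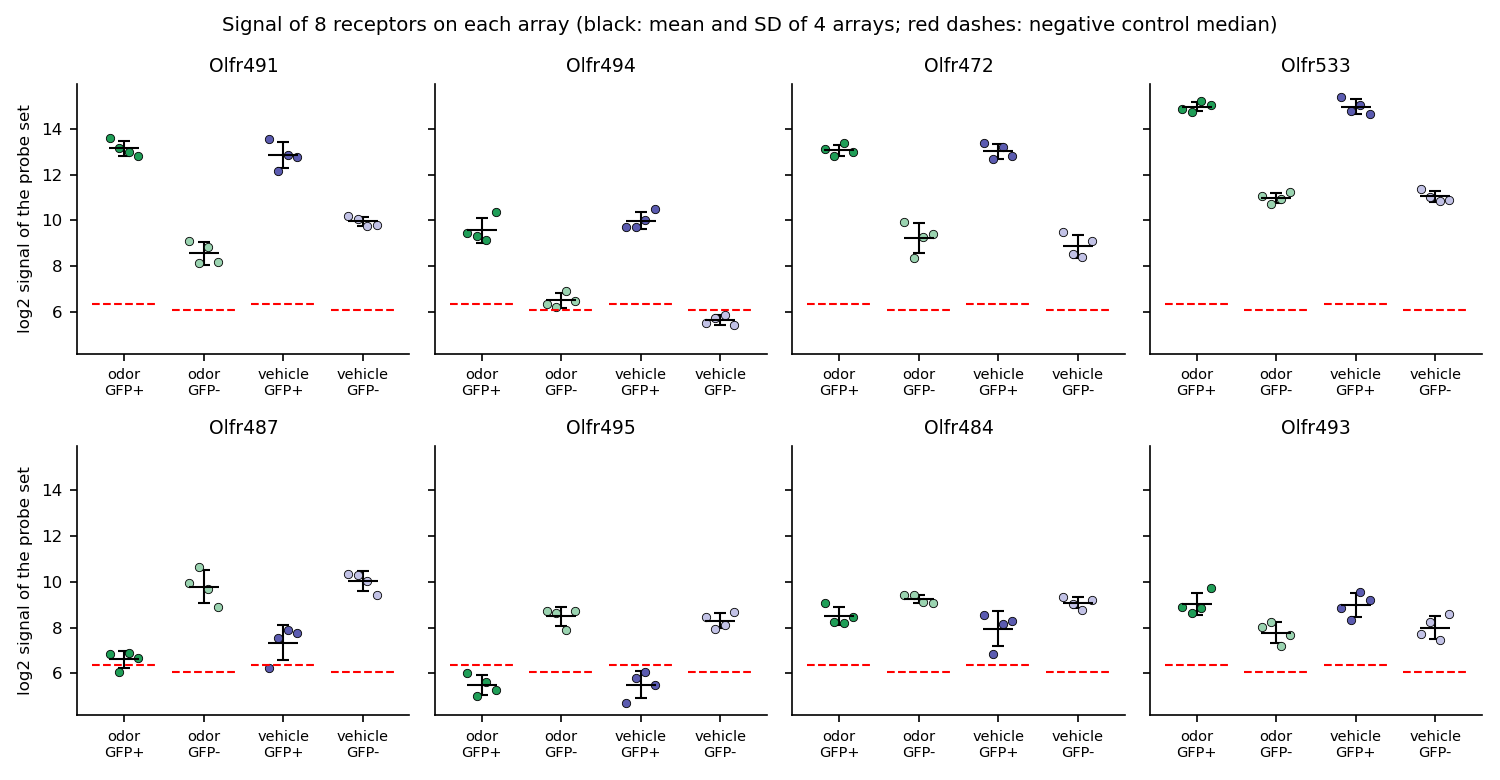
Log2 signal (y axis) of 8 receptors on each array of the odor GFP+, odor GFP-, vehicle GFP+ and vehicle GFP- groups (x axis). Points are arrays, black marks are mean and SD of 4 arrays, and red dashes are the median over arrays of the negative control medians. Olfr491, Olfr494, Olfr472 and Olfr533 lie higher on the GFP+ arrays and Olfr487 and Olfr495 lower, and Olfr484 and Olfr493 lie on opposite sides.

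MOR204 genes that share most of their first 50 coding bases were found on both sides of 0. Of the 25 MOR204 genes with a window at the start codon, 16 had 78 to 98 percent of the commonest bases at the same positions. The other 9 had 30 to 36 percent. Among the 16, 6 were higher in both sorts, 5 were lower in at least 1 and 5 passed in neither. Among the 9, 7 were higher in both sorts and none was lower. The median difference was 0.04 in odor pools and 0.40 in vehicle pools over the 16, and 1.96 and 1.00 over the 9. Because the bases were not aligned, the 9 include genes such as Olfr485 and Olfr491 whose stretches resemble those of the 16 after a shift. The 2 kinds therefore do not part similar from dissimilar sequences. They were separated after the values were seen, and no test was made between them. Olfr493, identical with Olfr484 over the 50 bases, was higher by 1.23 ± 0.31 in odor pools and 0.98 ± 0.31 in vehicle pools (limma adjusted p = 0.00737 and 0.0307). Its vehicle-pool call was lost in 6 of 17 alternatives, 4 of them single arrays left out (limma adjusted p up to 0.348). The likewise identical Olfr482 and Olfr492 differed by 2.15 ± 0.24 and 0.50 ± 0.23 in odor pools and by 2.19 ± 0.24 and 0.54 ± 0.23 in vehicle pools, of which the values of Olfr492 did not pass. For 90 MOR204 pairs, 90 percent or more of these bases were the same at the same positions. The median gap between the members' odor-pool differences was 1.78 over these pairs, against 1.98 over the 210 other pairs. In vehicle pools the gaps were 1.79 and 1.89. The 210 pairs can include genes that are alike after a shift, so these gaps cannot show whether similar genes differ less. Likeness with alignment, or beyond these 50 bases, was not measured. Probe sequences were not used here, so whether genes alike in these bases share array signal was not tested.

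The windows around the annotated gene start, 250 bases before and 50 after, were searched on both strands for a homeodomain-like motif (TAATNA or TAATTG), an Ebf-like motif (CCCNNGGG) and TATAAA, where matches of different motifs may share bases. A homeodomain-like match was in 73.1% of the 52 windows, 72.5% of those of other odorant receptors and 30.8% of all windows in the table. An Ebf-like match was in 3.85%, 2.86% and 13.7%, and TATAAA in 50.0%, 40.7% and 13.6%. The annotated gene start was a start codon in 96.15% of the windows of these receptors. It was one in 71.36% of the windows of other odorant receptors and 5.83% of all windows. The windows of these receptors therefore hold sequence before the coding start and not in general that before a transcription start.

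Enrichment was then compared between the stimuli. None of the 56 receptors passed as gaining or losing enrichment with the odor by limma, where 0.063% of all tested probe sets gained (14, all of them other odorant receptors) and 0% lost. At an unadjusted p under 0.05 there were 5 of the 56, against 104 of the 1024 other odorant receptors and 1033 of 22206 probe sets. The differences of odor pools and vehicle pools did not overlap for 4 of the 56 (7.14%), against 8.11% of the other odorant receptors and 3.31% of all tested probe sets. The estimates ran from -1.29 to 1.71 with a median of -0.15, against -0.17 over the other odorant receptors. The 95% interval, which is not adjusted for the number of probe sets, spanned 0 for 51 receptors, and the median half-width was 0.83. Changes of less than that size were not resolvable for a typical receptor here. Larger estimates, up to 1.71, did not pass the adjusted threshold either.

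Olfr491 had the smallest p. It had 13.59, 13.18, 13.00 and 12.82 in odor GFP+ cells against 9.12, 8.12, 8.82 and 8.18 in odor GFP- cells. In vehicle pools it had 13.54, 12.15, 12.87 and 12.78 in GFP+ cells against 10.18, 10.08, 9.77 and 9.80 in GFP- cells. The GFP+ minus GFP- difference per pool was 4.47, 5.06, 4.18 and 4.64 in odor pools and 3.36, 2.07, 3.11 and 2.98 in vehicle pools, with no overlap. The gain was 1.71 ± 0.38 (95% interval 0.91 to 2.51), with a limma adjusted p = 0.241 over all tested probe sets and 0.0181 to 0.848 over the alternatives. It passed with the medians of all odorant receptors set equal on every array (limma adjusted p = 0.0181).

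The other receptors with a small unadjusted p did not pass in any alternative. Olfr494 differed by -1.29 ± 0.34 (limma adjusted p = 0.629), with 3.10, 3.08, 2.21 and 3.86 in odor pools against 4.19, 3.95, 4.15 and 5.10 in vehicle pools. Olfr476 differed by 1.35 ± 0.37 (limma adjusted p = 0.64), with 1.48, 2.19, 1.61 and 2.55 in odor pools against 0.94, 0.80, 0.35 and 0.33 in vehicle pools. The pools of the stimuli did not overlap for either. For Olfr494 the vehicle GFP- signal was not above the negative control median on any array, so neither the size of its change nor the gap between its pools is a measured amount. Olfr476 was higher in GFP+ cells by 1.96 ± 0.26 in odor pools (limma adjusted p = 1.85e-05) and by 0.61 ± 0.26 in vehicle pools, short of the threshold (limma adjusted p = 0.109, and 0.0414 with the pool of mice as a block). Olfr510 (-0.81 ± 0.28) and Olfr530 (-0.72 ± 0.30) completed the 5.

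**Figure D4:**
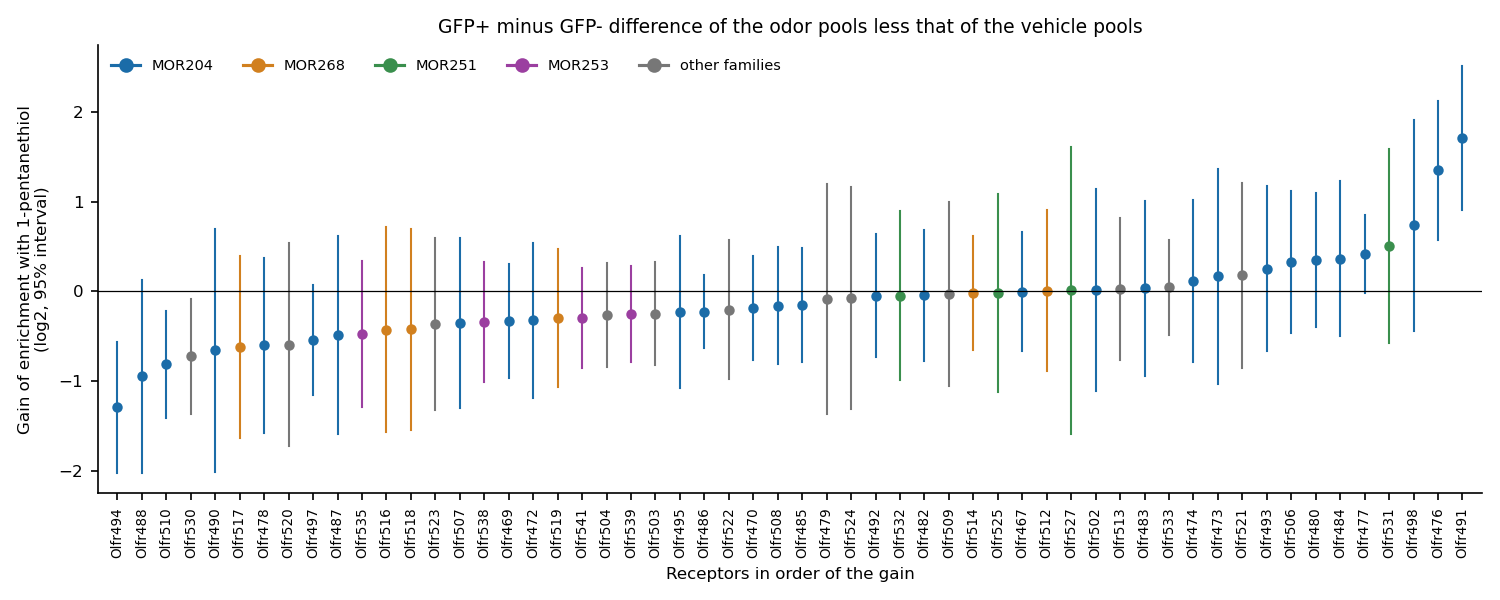
Gain of GFP+ enrichment with the odor, as the GFP+ minus GFP- difference of odor pools less that of vehicle pools (y axis, log2), for the 56 receptors in order of the gain (x axis). Points are estimates, lines 95% intervals, and colours families. Intervals cross 0 for 51 receptors, and those of Olfr491 and Olfr476 lie above and those of Olfr494, Olfr510 and Olfr530 below.

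Within GFP+ cells, odor and vehicle did not differ past the threshold for any of the 56 by limma, where 0.0766% of all tested probe sets were higher with the odor and 0% lower. At an unadjusted p under 0.05 there were 2 of the 56, against 99 of the 1024 other odorant receptors and 1587 of 22206 probe sets. These were Olfr477 (0.53 ± 0.15, limma adjusted p = 0.43) and Olfr476 (0.68 ± 0.26, limma adjusted p = 0.617). Olfr477 had 11.02, 11.29, 11.61 and 11.46 in odor GFP+ cells against 10.99, 10.65, 11.03 and 10.61 in vehicle GFP+ cells, which overlap. Next in order came Olfr480 (0.51 ± 0.25), Olfr488 (-0.74 ± 0.36) and Olfr503 (-0.39 ± 0.19, not above the negative control median in either group).

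Within GFP- cells none passed by limma, where 0.00901% of all tested probe sets were higher with the odor and 0.0405% lower, and 4 of the 56 had an unadjusted p under 0.05, against 79 of the 1024 other odorant receptors and 580 of 22206 probe sets. Olfr491 averaged 8.56 ± 0.49 in odor GFP- cells and 9.96 ± 0.20 in vehicle GFP- cells (SD, n = 4 each). All 4 odor arrays were below all 4 vehicle arrays, with a difference of -1.40 ± 0.27 (limma adjusted p = 0.111, and 0.0063 to 1 over the alternatives). It passed with receptor medians set equal and with array weights. The remaining 3 were Olfr494 (0.86 ± 0.24), Olfr510 (0.66 ± 0.20) and Olfr476 (-0.67 ± 0.26), none of which passed in any alternative, and the fifth by p was Olfr539 (0.32 ± 0.18). Since the vehicle GFP- signal of Olfr494 was not above the negative control median on any array, its 0.86 is no measured amount. In GFP+ cells Olfr491 averaged 13.15 ± 0.33 with the odor and 12.84 ± 0.57 with vehicle, and these overlap. The 3 comparisons of stimuli share arrays with one another.

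The fractions differed in other genes too. Of 22 measured genes of olfactory transduction and receptor trafficking, 6 were higher and 3 lower in GFP+ cells of odor pools, and the vehicle pools gave 3 higher and 3 lower. Among the higher ones was Pde1c, a phosphodiesterase of the cilia, with 0.60 ± 0.10 in odor pools and 0.69 ± 0.10 in vehicle pools. Of 10 genes known to follow activity slowly, 6 were higher in each sort, S100a5 among them, which also marked the cells. Of the mature neuron markers 2 of 8 were higher in odor pools and 1 in vehicle pools, and their mean log2 signal was 16.22 to 16.29 on odor GFP+ arrays against at most 16.06 on odor GFP- arrays, and 16.07 to 16.23 on vehicle GFP+ against 16.01 to 16.06 on vehicle GFP- arrays. Immature neuron markers were lower for 5 of 8 in both sorts, with mean signals of 11.6 to 12.2 on odor GFP+ against 12.8 to 13.6 on odor GFP- arrays and 11.5 to 12.2 on vehicle GFP+ against 13.0 to 13.7 on vehicle GFP- arrays. Neutrophil markers were lower for 8 of 8 in both sorts, with mean signals of 7.02 to 8.52 on odor GFP+ against 14.7 to 15.9 on odor GFP- arrays and 6.84 to 7.92 on vehicle GFP+ against 15.25 to 15.99 on vehicle GFP- arrays. Markers of globose basal and cycling cells (5 of 5) and of microvillar cells (6 of 6) were lower in both sorts, as were 2 of 5 of macrophages and the 1 erythroid gene measured. Sustentacular markers were lower for 3 of 6 in odor pools and 1 of 6 in vehicle pools, and horizontal basal markers for 0 of 4 and 1 of 4. The part of these cell types in the receptors' differences was not tested.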

How the data were processed

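For each probe set the authors deposited a log2 signal, computed with Affymetrix Expression Console per the submitters' processing notes. Version, summarization and normalization: not given in the sources used here. Biotinylated cRNA was hybridized, per the labels' protocols. No scaling or filter was added. A limma 3.58.1 model (R 4.3.3; lmFit, eBayes, total degrees of freedom 16.66) with 1 mean per group and no block took in the 16 arrays; tests are two-sided, with Benjamini-Hochberg adjustment over 22206 probe sets and a threshold of 0.05. Precision is limited by how few arrays there are. The fit was tested on simulated data. GFP+ and GFP- arrays of a pool come from the same mice, and their deviations from the group means correlated with r of 0.0119 to 0.224. Arrays of the same replicate number in odor and vehicle groups correlated with 0.186 to 0.29 in GFP- cells and with 0.0311 to 0.256 in GFP+ cells. The main fit paired them in neither fraction, and an alternative took the replicate number as a block in both. Alternatives were 4 scalings, a filter on dim probe sets, limma-trend, array weights, fits to the compared groups alone, blocks, and leaving out each array. Receptors were named per sort as the up to 12 highest and 12 lowest past the threshold, otherwise the 5 smallest p, plus families of 3 or more; further members were named after their values were seen. The members and lists were chosen with earlier results of these data known.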

Additional observations from a re-analysis of the deposited data

Results flagged for a closer look

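Among 224 groups of 4 arrays (56 receptors in 4 groups), 14 held an array that stood far from the other 3, its gap to the nearest being most of the group's range (Dixon's 95% critical value); chance gives this in about 1 in 20 groups. On GFP+ arrays, Olfr469 had 9.46 on odor replicate 3 against 10.26 to 10.35 on the others, Olfr482 had 11.84 on vehicle replicate 4 against 11.17 to 11.27, and Olfr538 had 10.42 on vehicle replicate 2 against 11.23 to 11.24. Vehicle GFP+ replicate 2 is also the array with the high negative control median. On odor GFP- arrays, replicate 3 was high for Olfr478 (8.47 against 7.24 to 7.39) and low for Olfr495 (7.88 against 8.65 to 8.73) and Olfr510 (9.60 against 10.10 to 10.17), and replicate 2 was low for Olfr514 (4.43 against 5.11 to 5.21). On vehicle GFP- arrays, replicate 2 was low for Olfr474 (5.15 against 5.87 to 5.92) and Olfr519 (6.02 against 6.66 to 6.77), replicate 1 was high for Olfr498 (7.69 against 5.83 to 5.98), replicate 3 was low for Olfr507 (5.06 against 6.11 to 6.32), and replicate 4 was high for Olfr509 (9.24 against 8.31 to 8.46). Olfr524 was low on GFP- replicate 4 of both stimuli, with 7.45 on the odor array against 8.79 to 9.04 and 7.74 on the vehicle array against 8.87 to 9.09.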

How the results depend on the processing

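With negative control medians set equal, 22 receptors were higher in vehicle pools against 34 as deposited. With odorant receptor medians set equal, 1 receptor, Olfr491, gained enrichment with the odor, and 1, again Olfr491, was lower with the odor in GFP- cells, as it was with array weights (1). Leaving out each array in turn gave 28 to 32 higher and 3 to 4 lower in odor pools, 29 to 34 higher and 4 lower in vehicle pools, and 0 in the comparisons of stimuli. Without vehicle GFP+ replicate 2 the vehicle counts were 34 and 4. Scaling moved the median of all probe sets from 0.13 in odor pools to 0.46 with array medians and -0.15 with negative control medians set equal, and from 0.11 in vehicle pools to 0.46 and -0.38; the higher and lower counts then were 36 and 3 and 24 and 4 in odor pools, and 42 and 4 and 22 and 4 in vehicle pools. The 56 had 31 higher and 4 lower in odor pools, and 26 and 4 in vehicle pools, with odorant receptor medians set equal. Their median difference then was 0.98 in odor pools and 0.76 in vehicle pools. Over all tested probe sets 2518 were higher in odor pools as deposited, against 13098, 865 and 342 with array, odorant receptor and negative control medians set equal, and 2074 in vehicle pools against 13003, 515 and 279. No call of a named receptor turned its sign. Of 34 named receptors past the threshold in each sort, 26 in odor pools and 25 in vehicle pools passed in every alternative. With the pool of mice as a replicate block, 32 were higher and 4 lower in odor pools and 34 and 4 in vehicle pools, and 0 gained or lost enrichment; it changed the calls of Olfr484 and Olfr538 in odor pools and Olfr476 and Olfr530 in vehicle pools, whose values stand with them, and no other call of the 56. With the replicate number as a block 0 passed between stimuli. Signals at or below the negative control median limit what 11 receptors, which lie above it on all 4 arrays of no group, can show.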
